A study of Mus musculus with 4 samples.

Results

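Genes of the hypoxia response outside glycolysis are described here: the 10 genes Vegfa, Pdk1, Car9, Adm, Bnip3, Ndrg1, Egln3, Ankrd37, Hif1a and P4ha1. They were taken by symbol from 36464 Ensembl gene IDs in 4 RNA sequencing libraries, and 10 of 10 symbols were found. The libraries were made from CD8+ T cells enriched from percutaneous tumour grafts of wild type male C57BL/6 mice. Mice received an antibody against SIGLEC15 (a sialic acid-binding lectin studied as an immune checkpoint) or control IgG, both by intraperitoneal injection over 2 weeks, with 6 mice per treatment. Grafts were collected on day 19, and each library mixed 3 cell pellets, so there were 2 libraries for anti-SIGLEC15 and 2 for IgG. Each SD or p below thus measures variation among pools rather than among mice. No label names the grafted tumour line. The study's title states its question, which is how CD8+ T cells in the tumour change when SIGLEC15 is blocked.

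Cells that lack oxygen stabilise the alpha subunit of hypoxia-inducible factor (HIF). In oxygen, the prolyl hydroxylases encoded by Egln genes mark that subunit, the VHL protein binds the mark, and the subunit is degraded. Without oxygen, HIF pairs with ARNT and switches on genes for blood vessel growth, acid and metabolite handling, mitophagy and matrix making. HIF control acts largely on the protein, so the level of Hif1a RNA is not a measure of HIF activity. Tumour cells, myeloid cells and activated T cells all use this pathway, and RNA from a mixed pellet does not tell which cell made a transcript.

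HIF binds short DNA elements whose core reads ACGTG or GCGTG, and these cores were looked up in promoters because the genes are grouped by that control. RefSeq promoter windows on GRCm38.p6, running from 250 bases before a start to 50 after it, were found for 9 of the 10 genes, 11 windows in all; Ndrg1 had none. Of the 11 windows, 9 held a core on either strand, and these 9 windows belonged to 9 different genes. Among all 32851 windows of the same length 43.8% held one, and among the 10697 windows of tested genes 62.7% did. ACGTG was in 7 of the 11 windows (19.6% of all windows and 26.3% of those of tested genes). GCGTG was in 6 of the 11 (32.4% and 50.7%). One window each of Vegfa and of Pdk1 held neither core. For Vegfa this was the window at the 5' end of the gene (chr17:46032328-46032627). The Vegfa window with cores (chr17:46025114-46025413) lay inside the annotated gene, as did the windows of Ankrd37 and Hif1a. For Pdk1 the window at the gene's 5' end held cores and the one inside the gene held none. A palindromic CACGTG, which counts as ACGTG on both strands, was in the windows of Bnip3 and Hif1a. Such matches describe letters and do not show binding. The following 4 windows are printed because they hold the promoters of 3 genes that were highest in IgG replicate 1 (Bnip3, Car9, Egln3) and of the gene that was lowest there (Hif1a). Capitals mark the cores on either strand.
Bnip3, chr7:138909457-138909756, minus strand: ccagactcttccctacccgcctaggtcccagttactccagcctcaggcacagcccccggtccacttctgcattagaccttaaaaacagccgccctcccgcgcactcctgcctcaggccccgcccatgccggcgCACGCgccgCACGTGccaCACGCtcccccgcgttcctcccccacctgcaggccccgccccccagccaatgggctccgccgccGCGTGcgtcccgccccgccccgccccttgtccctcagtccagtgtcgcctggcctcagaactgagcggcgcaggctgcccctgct
Car9, chr4:43506776-43507075, plus strand: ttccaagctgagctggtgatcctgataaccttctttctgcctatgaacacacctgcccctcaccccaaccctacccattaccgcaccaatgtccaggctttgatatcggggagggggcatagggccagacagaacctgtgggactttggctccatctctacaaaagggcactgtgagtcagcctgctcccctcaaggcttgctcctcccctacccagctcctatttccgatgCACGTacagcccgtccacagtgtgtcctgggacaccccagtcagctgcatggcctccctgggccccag
Egln3, chr12:54203825-54204124, minus strand: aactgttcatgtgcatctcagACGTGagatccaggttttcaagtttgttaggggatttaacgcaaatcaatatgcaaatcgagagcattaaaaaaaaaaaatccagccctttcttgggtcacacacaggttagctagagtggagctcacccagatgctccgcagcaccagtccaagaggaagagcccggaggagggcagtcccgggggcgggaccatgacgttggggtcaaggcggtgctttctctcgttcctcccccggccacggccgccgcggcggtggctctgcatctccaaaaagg
Hif1a, chr12:73907617-73907916, plus strand: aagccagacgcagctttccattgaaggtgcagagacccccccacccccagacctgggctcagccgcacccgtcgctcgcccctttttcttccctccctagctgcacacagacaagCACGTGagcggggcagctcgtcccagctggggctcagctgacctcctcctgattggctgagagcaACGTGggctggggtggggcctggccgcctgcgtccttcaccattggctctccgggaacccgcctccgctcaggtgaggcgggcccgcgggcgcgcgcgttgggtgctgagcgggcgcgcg

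**Figure D1:**
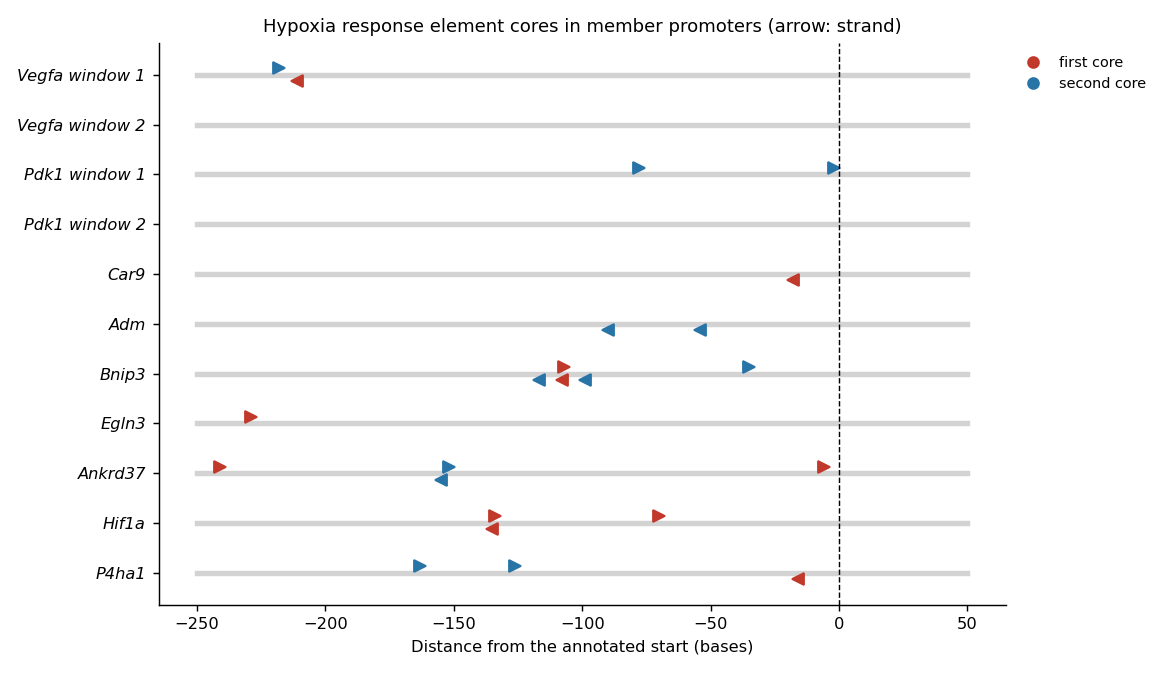
Position of the cores ACGTG (first core, red) and GCGTG (second core, blue) in the 11 promoter windows of 9 genes, as distance in bases from the annotated start; an arrow points along the strand that holds the core and stands at the core's first base on the gene's strand. The core of Car9 lay 18 bases before the start and that of Egln3 229 bases before it, while Bnip3 held 5 matches.

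One library stood apart in T cell, liver and neutrophil markers. The total of counted reads lay between 14854802 and 16026197 per library, so depth was similar. Mitochondrial reads made up 8.91% and 18.37% of the reads in anti-SIGLEC15 replicates 1 and 2. In IgG replicates 1 and 2 they made up 11.87% and 12.96%. Cd8a, a chain of the CD8 coreceptor of killer T cells, measured 290 and 315 RPKM in anti-SIGLEC15 replicates 1 and 2, and 115 and 351 RPKM in IgG replicates 1 and 2. Alb, the serum albumin gene, marks liver and hepatoma cells and was abundant in these T cell pellets, at 1089 and 625 RPKM with anti-SIGLEC15, and 2795 and 556 RPKM with IgG. IgG replicate 1 had the lowest level of 15 of 15 T cell markers, the highest level of 10 of 14 tested liver and hepatoma markers, and the highest of 6 of 7 tested neutrophil markers. Summed RPKM of the liver list was 3334 and 1558 with anti-SIGLEC15, and 7991 and 1552 with IgG. The neutrophil list summed to 243 and 425 with anti-SIGLEC15, and to 894 and 133 with IgG. The T cell list summed to 3163 and 3231 with anti-SIGLEC15, and to 1196 and 3546 with IgG. No marker of these 3 lists was at 0 in every library.

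On the RPKM scale, reads scaled to exon length and to library depth, the genes covered a wide range of levels. By the mean of the 4 libraries the order was Vegfa (60.9), Egln3 (54.2), Bnip3 (47.3), Hif1a (41.0), Ndrg1 (31.8), P4ha1 (17.9), Pdk1 (9.12), Ankrd37 (5.58), Car9 (5.02) and Adm (0.246). The ranges of neighbours in this order overlapped over the 4 libraries, except between P4ha1 and Pdk1 and between Car9 and Adm. In 9 of the 10 genes the level was high enough for the test, which needed 1 RPKM in 2 libraries; each of these 9 exceeded 1 RPKM in every library.

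The secreted signals of the group were at opposite ends of this order. Vegfa (ENSMUSG00000023951, chromosome 17, 46016993 to 46032369, minus strand) encodes the growth factor that draws in blood vessels. It measured 45.6 and 38.7 RPKM in anti-SIGLEC15 replicates 1 and 2, and 134 and 25.2 RPKM in IgG replicates 1 and 2. Both anti-SIGLEC15 libraries lay between the IgG libraries, which held the highest and the lowest value of the series. Vegfa in IgG replicate 1 was 5.33 times IgG replicate 2, with a 95% exact binomial interval from 5.06 to 5.62 that covers counting error only. Adm (ENSMUSG00000030790, chromosome 7, 110627661 to 110629820, plus strand) encodes adrenomedullin, a vasodilator peptide. It had 5 and 1 reads with anti-SIGLEC15, and 10 and 9 reads with IgG, or 0.197 and 0.0416 RPKM with anti-SIGLEC15, and 0.385 and 0.358 RPKM with IgG. The 2 groups did not overlap, but a level of 3 reads corresponds to 0.116 to 0.125 RPKM here, so Adm was hardly detectable at this depth and was not tested.

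Genes of acid and pyruvate handling were lower than Vegfa. Car9 (ENSMUSG00000028463, chromosome 4, 43506966 to 43513729, plus strand) encodes carbonic anhydrase 9, an enzyme of the cell surface that regulates pH. It measured 3.57 and 3.07 RPKM with anti-SIGLEC15, and 10.2 and 3.25 RPKM with IgG, on 105 to 376 reads per library. IgG replicate 1 was high and the other 3 libraries lay close together. Pdk1 (ENSMUSG00000006494, chromosome 2, 71873224 to 71903858, plus strand) encodes pyruvate dehydrogenase kinase 1, which keeps pyruvate out of the mitochondrial citric acid cycle. It measured 8.54 and 6.28 RPKM with anti-SIGLEC15, and 12.5 and 9.12 RPKM with IgG. Pdk1 was the one tested member whose groups did not overlap, with both anti-SIGLEC15 libraries below both IgG libraries.

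Bnip3 and Ndrg1 shared one shape, which Car9 also had and Ankrd37 did not. Bnip3 (ENSMUSG00000078566, chromosome 7, 138890836 to 138909519, minus strand) encodes a protein of the outer mitochondrial membrane that promotes mitophagy. It measured 36.6 and 33.0 RPKM with anti-SIGLEC15, and 88.2 and 31.2 RPKM with IgG. Ndrg1 (ENSMUSG00000005125, chromosome 15, 66929318 to 66969640, minus strand), a stress-induced gene, measured 25.6 and 20.7 RPKM with anti-SIGLEC15, and 59.3 and 21.5 RPKM with IgG. In both genes IgG replicate 1 stood above the other 3 libraries, which differed little from each other. The ratio of IgG replicate 1 to IgG replicate 2 was 2.83 for Bnip3 (2.64 to 3.04) and 2.76 for Ndrg1 (2.63 to 2.90). Ankrd37 (ENSMUSG00000050914, chromosome 8, 45996902 to 46005707, minus strand) encodes an ankyrin repeat protein. It measured 5.17 and 3.85 RPKM with anti-SIGLEC15, and 8.23 and 5.07 RPKM with IgG, so the groups overlapped by a small margin. Exons of Lrp2bp on the other strand cover 22.7% of the exon length of Ankrd37, and 22.3% of that of Bnip3 is shared with another annotated gene; no source used here says whether the counting used strand.

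The HIF control genes of the group went different ways. Egln3 (ENSMUSG00000035105, chromosome 12, 54178981 to 54203860, minus strand) encodes the prolyl hydroxylase PHD3, itself induced by HIF. It measured 45.1 and 29.1 RPKM with anti-SIGLEC15, and 112 and 30.2 RPKM with IgG. Both replicate 1 libraries were above both replicate 2 libraries. Hif1a (ENSMUSG00000021109, chromosome 12, 73901375 to 73947530, plus strand) encodes the regulated subunit itself. It measured 40.8 and 46.9 RPKM with anti-SIGLEC15, and 29.4 and 46.8 RPKM with IgG. Hif1a was the one tested member with its lowest value in IgG replicate 1, at 0.628 times IgG replicate 2 (0.599 to 0.659). P4ha1 (ENSMUSG00000019916, chromosome 10, 59323296 to 59373304, plus strand), the catalytic subunit of the collagen prolyl hydroxylase, measured 17.9 and 16.0 RPKM with anti-SIGLEC15, and 22.3 and 15.6 RPKM with IgG. It had the smallest span of the tested members over the 4 libraries, with IgG replicate 1 at 1.44 times IgG replicate 2 (1.32 to 1.56).

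**Figure D2:**
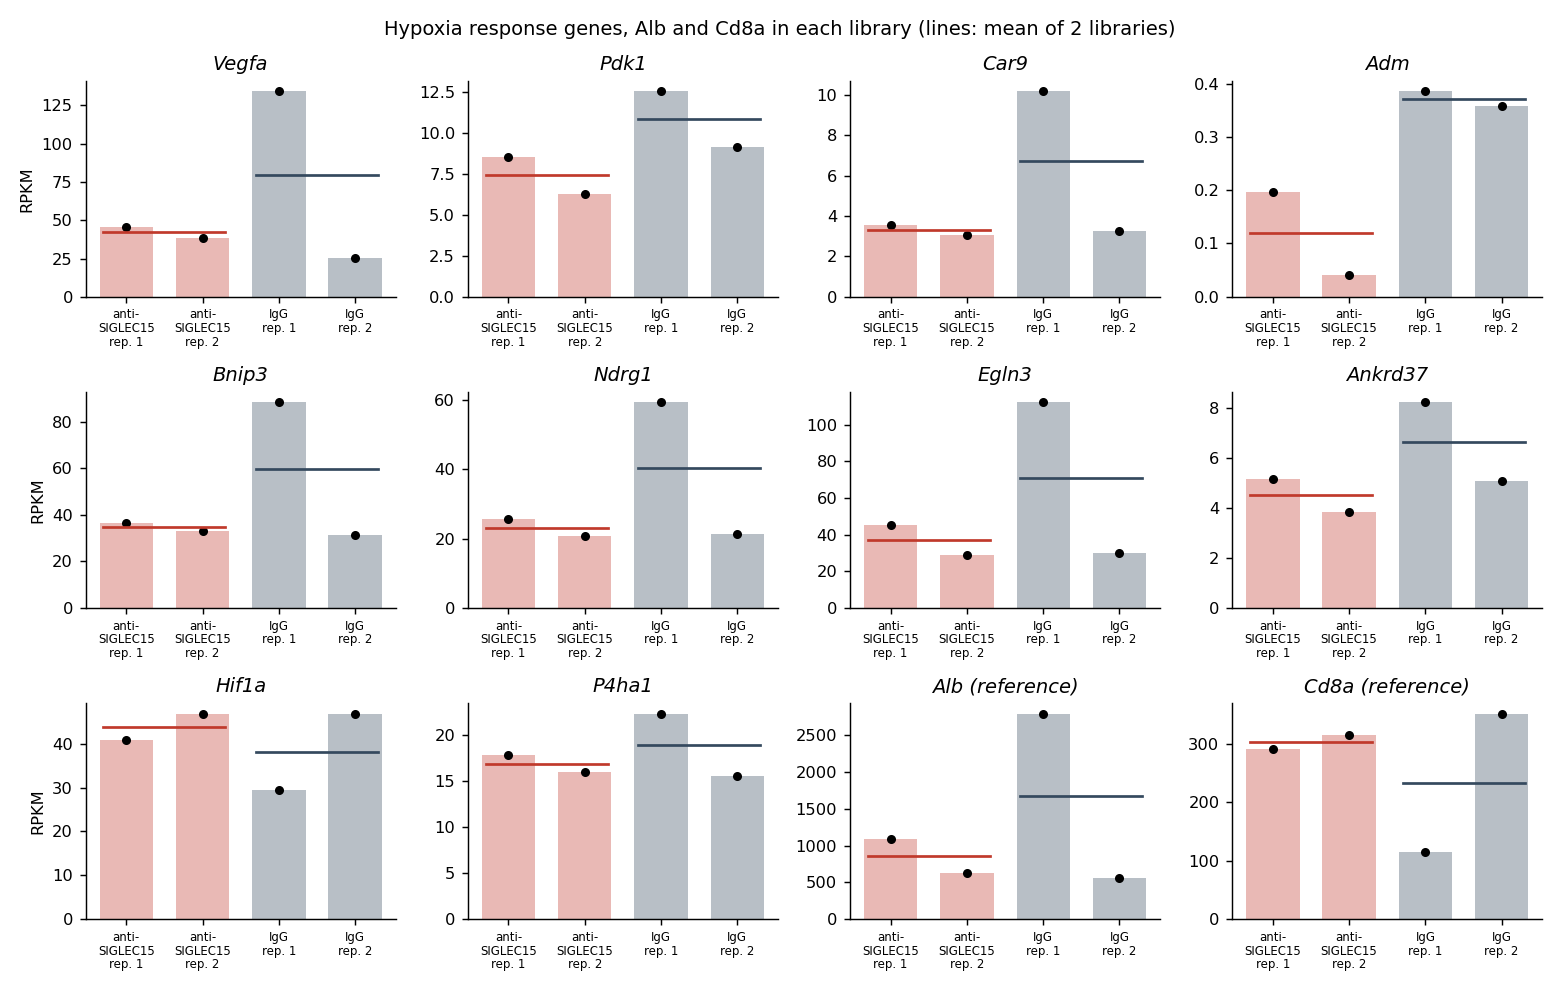
RPKM of the 10 hypoxia response genes, and of Alb and Cd8a as tumour and T cell profiles, in each of the 4 libraries; bars and points give a library's value and horizontal lines the mean of a treatment's 2 libraries. IgG replicate 1 is the highest library for 8 of the 9 tested members, as for Alb, and the lowest for Hif1a, as for Cd8a.

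No member passed the test between treatments, and for most the IgG pair was further apart than the treatment means. In limma on log2(RPKM + 1), 0 of 12484 genes (0.0%) had a Benjamini-Hochberg adjusted p under 0.05, and the adjusted p of each of the 9 tested members was 1. At an unadjusted p under 0.05 there were 146 genes (1.17%) and 0 of the 9 members. With 2 libraries against 2, the smallest p of an exact two-sided permutation test is 0.333. The mean log2 fold change was below 0 in 8 of 9 tested members, against 47.5% of all tested genes. The median of the 9 was -0.49, and that of all tested genes 0.02. Both anti-SIGLEC15 libraries lay below both IgG libraries in 1 of 9 members (Pdk1), against 6.02% of all tested genes, and above them in 0 of 9, against 12.1%. Red cell markers did not overlap between treatments: 5 of 5 lay lower in both anti-SIGLEC15 libraries, against 6.02% of all tested genes, and 0 passed adjustment. Their summed levels were 113 and 19.9 RPKM with anti-SIGLEC15, and 691 and 1929 RPKM with IgG. The sums thus also differed within each treatment. The part of red cells in the members' levels was not tested. A lower level in a bulk pellet can be fewer cells that make a transcript or less of it per cell, and these cannot be told apart here.

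For Vegfa the mean was 42.2 ± 4.88 RPKM with anti-SIGLEC15 and 79.7 ± 77.1 RPKM with IgG (SD, n = 2 each), a log2 fold change of -0.47 (SE 0.80). Egln3 averaged 37.1 ± 11.3 RPKM with anti-SIGLEC15 and 71.2 ± 58.0 RPKM with IgG, a log2 fold change of -0.67 (SE 0.67). The SD of the IgG pair exceeded the difference of the treatment means in 8 of 9 tested members. The exception was Pdk1, which averaged 7.41 ± 1.60 RPKM with anti-SIGLEC15 and 10.8 ± 2.41 RPKM with IgG, with a log2 fold change of -0.49 (SE 0.31) and an unadjusted p of 0.175 in limma. Hif1a averaged 43.8 ± 4.31 RPKM with anti-SIGLEC15 and 38.1 ± 12.3 RPKM with IgG, a log2 fold change of 0.23 (SE 0.33).

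Direction hung on which IgG library was kept. Without IgG replicate 1, 3 of 9 members had a log2 fold change below 0, and 7 of 9 turned their sign. Vegfa then stood at 0.72 (SE 0.30), Egln3 at 0.26, Bnip3 at 0.15, Ndrg1 at 0.10 and Hif1a at -0.10. Pdk1 kept a negative sign at -0.28 (SE 0.37) and Ankrd37 at -0.15 (SE 0.39), each less than its SE from 0. Without IgG replicate 2, by contrast, Vegfa fell by 1.65, Egln3 by 1.60, Car9 by 1.38, Ndrg1 by 1.33 and Bnip3 by 1.32 on the log2 scale. These 5 passed in limma (adjusted p from 1.73e-06 for Vegfa to 0.00578 for Car9) in a fit that called 9.36% of all tested genes as lower. Each of these fits has 1 IgG library, which is assumed to vary like the anti-SIGLEC15 pair. When libraries were scaled to the T cell list, the median log2 fold change of all genes moved to -0.58, and Hif1a turned to -0.45. When they were scaled to the liver list it moved to 0.29, and P4ha1 turned to 0.22; the other 8 members kept their sign under each of these scalings.

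**Figure D3:**
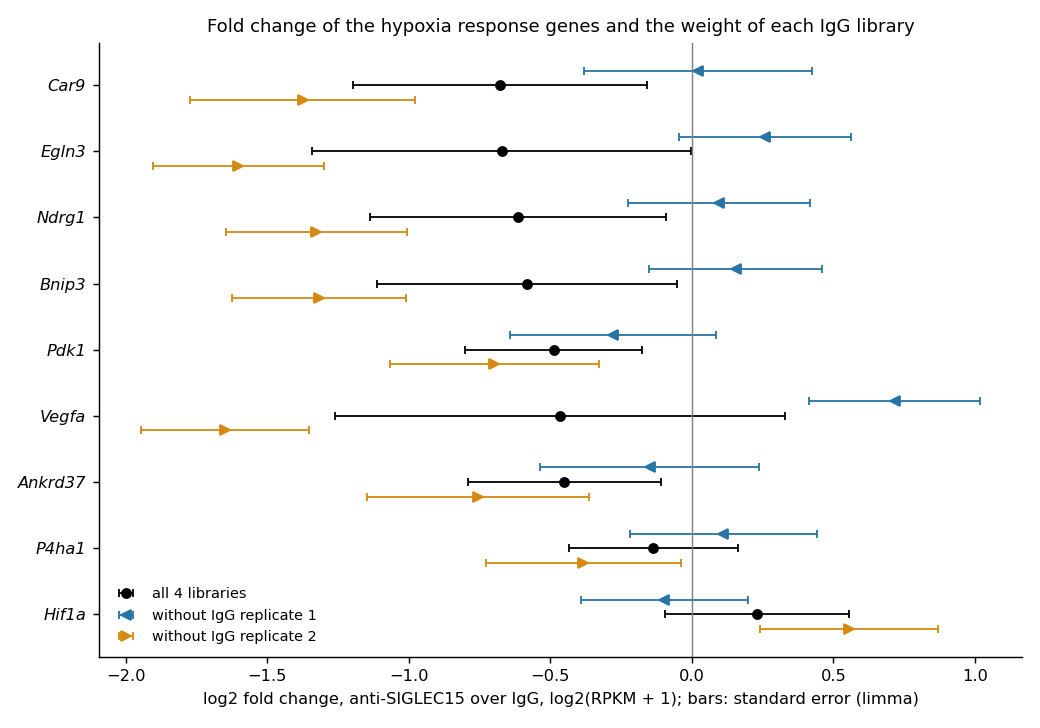
Log2 fold change of the 9 tested members, anti-SIGLEC15 over IgG on the log2(RPKM + 1) scale, with its standard error in limma, from all 4 libraries (black) and without each IgG library. Blue points (without IgG replicate 1) lie near or above 0 for most members, at 0.72 for Vegfa. Orange points (without IgG replicate 2) reach -1.65 for Vegfa. Pdk1 and Ankrd37 stay below 0 in all 3 fits, but by less than their SE without IgG replicate 1.

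The IgG libraries differed from each other in many of these genes. The median difference (IgG replicate 1 minus IgG replicate 2) was 1.40 on the log2 scale, against -0.08 for all tested genes. Pdk1 differed by 0.42, beside a treatment difference of -0.49. IgG replicate 1 was the highest library in 8 of 9 tested members, against 34.0% of all tested genes, and the lowest in 1 of 9, against 43.4%. It exceeded IgG replicate 2 by at least 1 on the log2 scale in 5 of 9 members (Vegfa, Egln3, Bnip3, Ndrg1 and Car9), against 12.5% of all tested genes. In these 5 members the anti-SIGLEC15 libraries differed by less than 1, a combination seen in 10.5% of all tested genes. It was lower than IgG replicate 2 by at least 1 in 0 of 9 members, against 9.28%. Alb differed by 2.33 on this scale, Vegfa by 2.37, Egln3 by 1.86 and Cd8a by -1.60. Likeness was measured as the root mean square difference between log2 profiles over the 4 libraries, each centred on its mean, where Alb and Cd8a stood 1.54 apart. By this measure 8 of 9 tested members were nearer to Alb than to Cd8a, against 28.7% of all tested genes, with Egln3 (0.181 to Alb, 1.40 to Cd8a) and Vegfa (0.212 and 1.51) the nearest. Hif1a was nearer to Cd8a (0.382, against 1.18 to Alb). Pdk1 (0.692 to Alb, 0.913 to Cd8a) and P4ha1 (0.724 and 0.831) stood between them.

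Set against Alb, the span over the libraries narrowed for 5 members and widened for the other 4 tested ones. The 5 were those with an IgG difference of at least 1 on the log2 scale, and Alb in IgG replicate 1 was itself 5.02 times IgG replicate 2. The narrowing thus restates that difference. Such spans were computed for the members only, with no share of all tested genes. Per length, Vegfa amounted to 4.19% and 6.19% of Alb in anti-SIGLEC15 replicates 1 and 2, and to 4.80% and 4.52% in IgG replicates 1 and 2. The highest of these shares was 1.48 times the lowest, whereas Vegfa alone spanned 5.33 times and its share of Cd8a 16.3 times. Egln3 amounted to 4.14% and 4.66% of Alb with anti-SIGLEC15, and to 4.01% and 5.42% with IgG, a span of 1.35 times, against 3.86 times for Egln3 alone. The span also narrowed for Bnip3 (1.77 times relative to Alb, 2.83 alone), Ndrg1 (1.82 and 2.87) and Car9 (1.78 and 3.32). It widened for Pdk1 (3.66 relative to Alb, 1.99 alone), Ankrd37 (3.09 and 2.14) and P4ha1 (3.50 and 1.44). Hif1a spanned 7.99 times relative to Alb, 1.92 times relative to Cd8a and 1.59 times alone. Relative to Cd8a, the span widened for all 9 tested members. The part of tumour, neutrophil and T cell content in the level of these genes was not tested.

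The anti-SIGLEC15 pair separated liver from neutrophil markers, while the members lay around the median of all tested genes. All 14 tested liver and hepatoma markers were higher in anti-SIGLEC15 replicate 1 than in replicate 2, by a median of 1.62 on the log2 scale and at least 0.80. All 7 tested neutrophil markers were lower in replicate 1, by a median of -0.90. The 9 hypoxia members differed by -0.20 to 0.62 with a median of 0.23, and 8 of 9 were higher in replicate 1, against 77.7% of all tested genes, whose median was also 0.23. Egln3, at 0.62, came nearest to the liver markers. All 9 lay in the wide gap between the liver and the neutrophil markers, as did the median of all tested genes. T cell markers ran from -0.75 to 0.34. The share of all tested genes in this gap was not counted. Mitochondrial reads made up 8.91% of the reads in anti-SIGLEC15 replicate 1 and 18.37% in replicate 2. Their part in these differences was not tested.

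**Figure D4:**
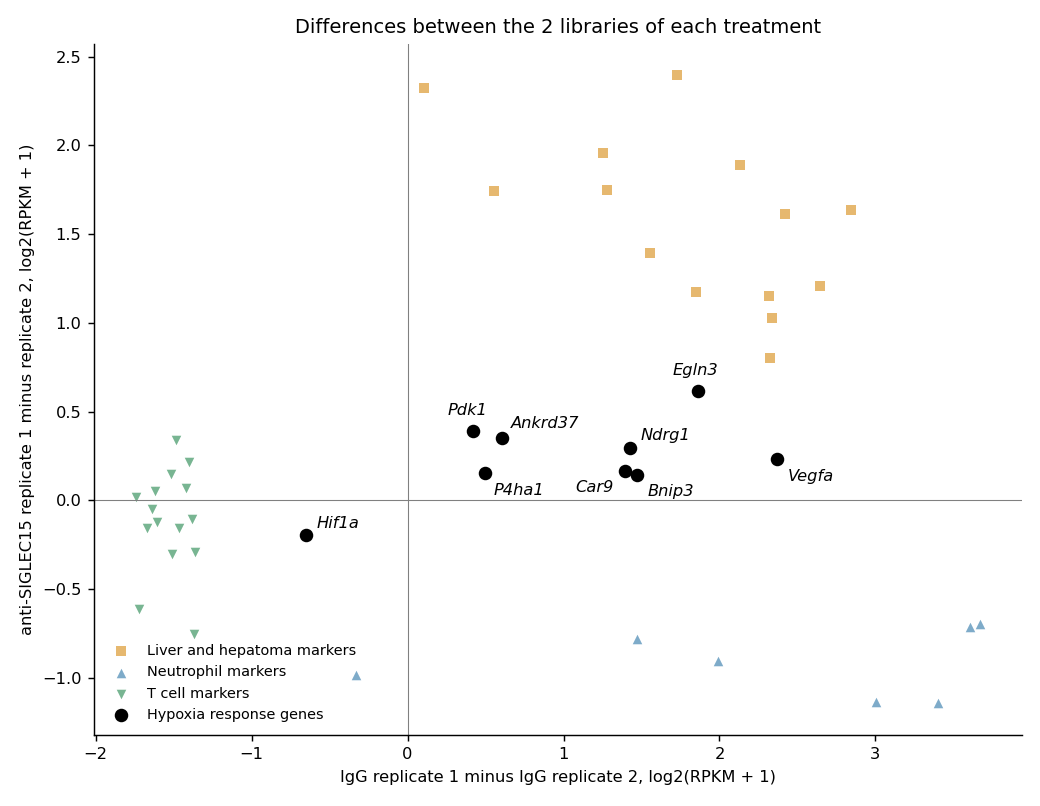
Difference between the 2 libraries of IgG (x axis) and of anti-SIGLEC15 (y axis), both as log2(RPKM + 1), for the 9 tested members and for tested markers of liver and hepatoma, neutrophils and T cells. The members lie from -0.65 (Hif1a) to 2.37 (Vegfa) on the x axis. On the y axis they lie between the liver markers above (0.80 or more) and the neutrophil markers below, where T cell markers run from -0.75 to 0.34.

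In the replicate 2 libraries, Alb and Cd8a levels were close between treatments. The ratios of 6 of 9 tested members lay between those of Alb and Cd8a. The share of all tested genes in that range was not counted, so the 6 are not set apart by it. Other markers were not close: neutrophil markers differed by a median of 1.99 on the log2 scale (anti-SIGLEC15 replicate 2 minus IgG replicate 2) and red cell markers by -5.84, and mitochondrial reads made up 18.37% and 12.96% of the reads. The part of these differences in the ratios was not tested. This pair was chosen after the values were seen, and 1 library against 1 allows no test. Anti-SIGLEC15 replicate 2 over IgG replicate 2 gave 1.06 for Bnip3 (95% exact binomial interval 0.975 to 1.15), 0.963 for Ndrg1 (0.906 to 1.02), 0.965 for Egln3 (0.890 to 1.05) and 1.00 for Hif1a (0.959 to 1.04). Alb stood at 1.12 and Cd8a at 0.897. Outside this range lay Vegfa at 1.54 (1.44 to 1.64), Pdk1 at 0.689 (0.627 to 0.758) and Ankrd37 at 0.759 (0.570 to 1.01). On the log2(RPKM + 1) scale the median difference of this pair was -0.05 for the tested members and -0.10 for all tested genes. The intervals cover counting error only.

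Some relatives of the members split between the profiles. IgG replicate 1 was the highest library for 6 of 8 tested genes of pyruvate dehydrogenase control and the lowest for 2. It was the highest for 6 of 7 tested collagen hydroxylase genes and the lowest for 1. These lists include Pdk1 and P4ha1, and the shares of all tested genes were 34.0% highest and 43.4% lowest. P4ha2 measured 3.07 and 1.95 RPKM with anti-SIGLEC15, and 6.47 and 2.13 RPKM with IgG. In the pyruvate dehydrogenase kinase family, Pdk2 measured 11.3 and 7.24 RPKM with anti-SIGLEC15, and 33.5 and 7.05 RPKM with IgG. Pdk3 measured 16.2 and 16.3 RPKM with anti-SIGLEC15, and 7.92 and 21.3 RPKM with IgG. IgG replicate 1 was thus the highest library for Pdk2 and the lowest for Pdk3, and Pdk1 lay between these kinases in its spread. Ndrg2 measured 6.77 and 4.82 RPKM with anti-SIGLEC15, and 18.7 and 5.47 RPKM with IgG, much as Ndrg1, but Ndrg3 had its lowest value in IgG replicate 1 (8.07 and 6.96 RPKM with anti-SIGLEC15, 5.23 and 7.93 RPKM with IgG). Bnip3l, the mitophagy receptor related to Bnip3, measured 38.3 and 39.7 RPKM with anti-SIGLEC15, and 41.4 and 46.7 RPKM with IgG, without the peak of Bnip3 in IgG replicate 1. The glucose transporter genes Slc2a1 and Slc2a3 are not relatives of a member and are named here with their values known. Slc2a1 measured 52.2 and 48.9 RPKM with anti-SIGLEC15, and 101 and 42.5 RPKM with IgG. Slc2a3 measured 18.0 and 21.9 RPKM with anti-SIGLEC15, and 14.8 and 31.6 RPKM with IgG.

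**Figure D5:**
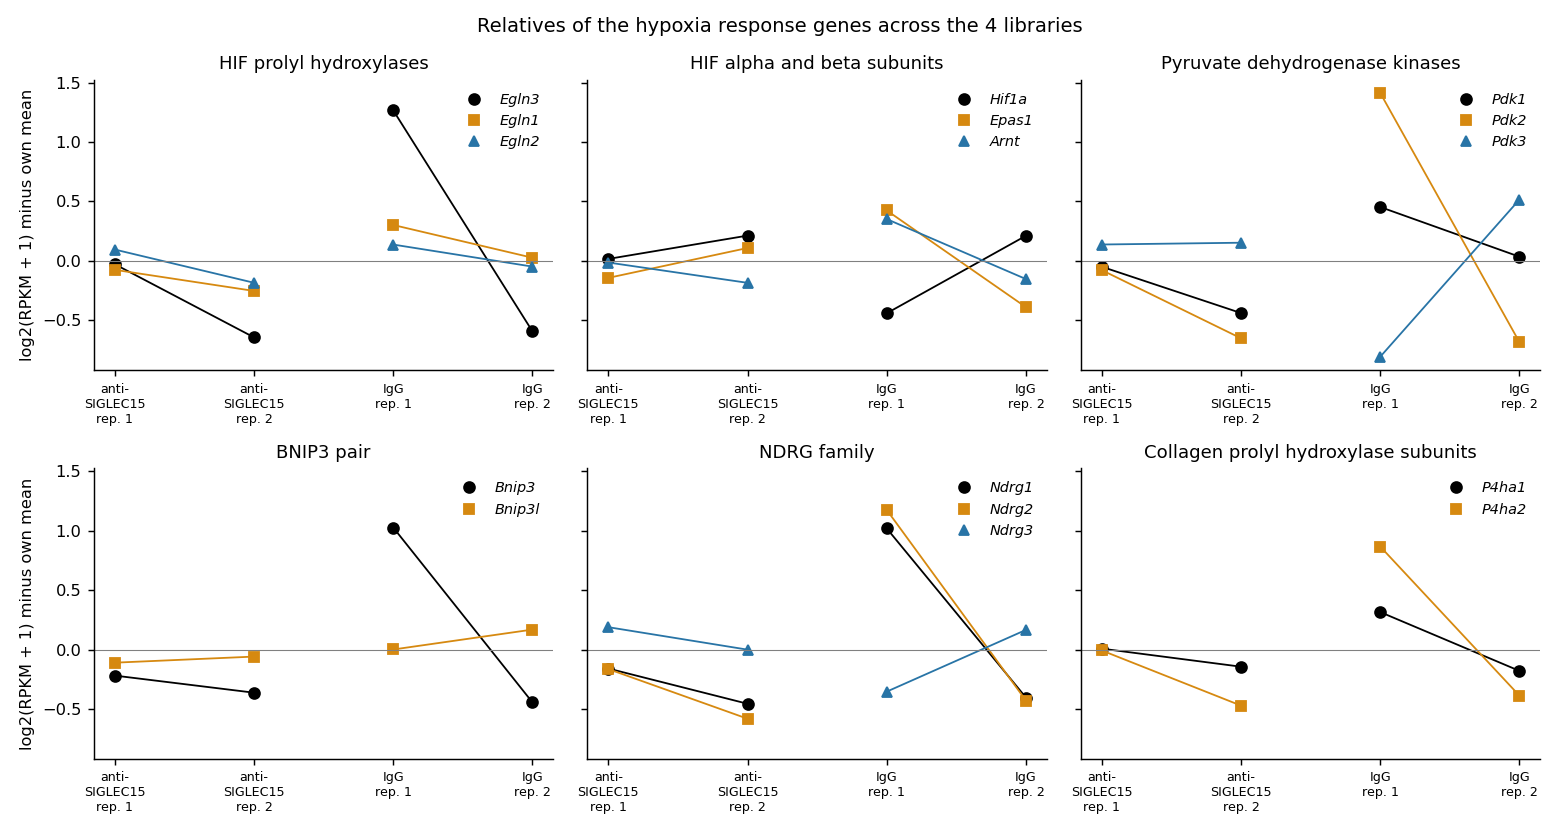
Level of members and their relatives in each library as log2(RPKM + 1) minus the gene's own mean over the 4 libraries, with lines joining the 2 libraries of a treatment. Egln3, Pdk2, Bnip3, Ndrg1 and Ndrg2 peak in IgG replicate 1. P4ha2, Pdk1, Epas1, Arnt, P4ha1, Egln1 and Egln2 are also highest there, from 0.87 above the own mean (P4ha2) to 0.14 (Egln2). Hif1a, Pdk3 and Ndrg3 have their lowest value there, and Bnip3l is highest in IgG replicate 2.

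Within the HIF pathway, 3 of 10 tested genes were lower in both anti-SIGLEC15 libraries and 0 higher, against 6.02% and 12.1% of all tested genes, and none had an adjusted p under 0.05 in limma. The 3 were Egln1, the main oxygen-sensing prolyl hydroxylase (35.8 and 31.5 RPKM with anti-SIGLEC15, 46.8 and 38.5 RPKM with IgG), Vhl, which binds the hydroxylated subunit (7.48 and 7.28 RPKM with anti-SIGLEC15, 8.27 and 8.22 RPKM with IgG), and Arnt2. The median log2 fold change of the 10 was -0.17. Epas1, which encodes the second alpha subunit, measured 9.37 and 11.3 RPKM with anti-SIGLEC15, and 14.4 and 7.74 RPKM with IgG, opposite to Hif1a in the IgG pair. Arnt measured 5.78 and 5.02 RPKM with anti-SIGLEC15, and 7.73 and 5.15 RPKM with IgG.

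Among receptors of the secreted signals, Kdr and Flt1 were near the limit of detection and others were not. Kdr, the main VEGF receptor of endothelial cells, had 1 and 0 reads with anti-SIGLEC15, and 1 read in each IgG library, and Flt1 had 18 and 8 reads with anti-SIGLEC15, and 15 and 50 reads with IgG. Of 8 endothelial markers 1 was tested, and the list summed to 3.54 and 3.00 RPKM with anti-SIGLEC15, and to 2.75 and 3.19 RPKM with IgG. The coreceptor gene Nrp1 was higher, at 4.15 and 5.22 RPKM with anti-SIGLEC15, and 2.02 and 8.71 RPKM with IgG. Vegfb, a second ligand, measured 17.9 and 14.3 RPKM with anti-SIGLEC15, and 20.5 and 14.2 RPKM with IgG. Calcrl, the adrenomedullin receptor, measured 4.41 and 1.52 RPKM with anti-SIGLEC15, and 11.8 and 2.88 RPKM with IgG, a peak in IgG replicate 1. Ramp3, which fits that receptor for adrenomedullin, measured 6.00 and 13.4 RPKM with anti-SIGLEC15, and 14.1 and 8.46 RPKM with IgG. Among 16 carbonic anhydrase genes 2 were tested, Car9 and Car2, and Car2 measured 9.68 and 9.31 RPKM with anti-SIGLEC15, and 16.4 and 5.06 RPKM with IgG.

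A wider list of hypoxia response genes outside glycolysis, with the members left out, had 23 of 28 genes tested. IgG replicate 1 was the highest library for 15 of the 23, against 34.0% of all tested genes, and the lowest for 6, against 43.4%. Both anti-SIGLEC15 libraries lay below both IgG libraries in 3 (Ero1l, Bnip3l and Insig2; 6.02% of all tested genes) and above in 1 (Wsb1; 12.1%), and none had an adjusted p under 0.05 in limma. Ero1l, an oxidase of protein folding, measured 22.5 and 23.8 RPKM with anti-SIGLEC15, and 36.0 and 26.6 RPKM with IgG. Hilpda, a lipid droplet gene named here with its values known, measured 142 and 155 RPKM with anti-SIGLEC15, and 373 and 127 RPKM with IgG, the shape of Bnip3. Among the glycolysis targets of HIF, 8 of 17 tested genes were lower in both anti-SIGLEC15 libraries, against 6.02% of all tested genes. Between the IgG libraries these 17 differed by -1.12 to 1.46 on the log2 scale with a median of -0.13, and the 9 members by -0.65 to 2.37 with a median of 1.40; the difference between the lists was not tested. Aldoc, an aldolase gene, had the one unadjusted p under 0.05 among them and did not pass after adjustment (4.33 and 6.15 RPKM with anti-SIGLEC15, 12.2 and 11.0 RPKM with IgG; unadjusted p = 0.0158 in limma).

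By the measure of likeness used above, the protein-coding genes nearest to each member were sought among 5977 with a mean of at least 5 RPKM, over 4 libraries. Nearest to Vegfa were Ppbp (0.048), Chka (0.050) and Rnf186 (0.053). Nearest to Egln3 were Capn5 (0.027), Ephx1 (0.035) and Nrn1 (0.038). Msmo1 was among the 3 nearest genes of Car9, Bnip3 and Ndrg1, and the metallothionein gene Mt1 among those of Bnip3. Hif1a was nearest to Btg3 (0.0076), Kansl1 and Carnmt1. Among the members themselves the closest pairs were Car9 with Bnip3 (0.055), Car9 with Ndrg1 (0.056), Bnip3 with Ndrg1 (0.059) and Pdk1 with Ankrd37 (0.070). With 4 libraries many genes share a profile by this measure.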

How the data were processed

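RNA enriched with oligo-coated beads was sequenced (DNBSEQ-G50), per the labels' protocols. The deposited values have no stated unit and are read as RPKM made by the authors, since value times GENCODE M21 exon length was a whole multiple of 1 step per library (within 0.02) for 98.92% to 98.97% of genes under 1000 reads. The submitters' processing notes list the builds GRCm38 and mm10; aligner and counter: not given in the sources used here. Symbols matched 36386 IDs; Aldoa was left out because its symbol is shared.

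Genes that reached 1 RPKM in 2 or more libraries were tested with limma 3.58.1 (trend, robust) in R 4.3.3 on log2(RPKM + 1), adjusted over all genes tested; this scale understates changes of low genes. Named genes were all members, list genes (mean of at least 5 RPKM) whose treatments did not overlap, at most 4 per list, relatives by role, and the 3 nearest profiles; genes outside this rule were picked after seeing values. Members and lists were chosen with earlier results of these data known. Alternatives were 3 scalings, 2 filters, a pseudocount of 0.1, limma-voom on recovered reads (at least 10 in 2 libraries), a block for replicate number and single libraries left out; the replicate 2 pair alone was added after the data were seen. Intervals are exact binomial at 95%. Python 3.11.15 and scipy 1.17.1 were used.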

Additional observations from a re-analysis of the deposited data

How the results depend on the processing

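Over all tested genes, limma called 0 genes in either direction under 3 scalings, 2 filters, a pseudocount of 0.1, limma-voom on recovered reads and the replicate block. Leaving out a library gave 0 to 961 higher and 0 to 1168 lower calls; without IgG replicate 1 there were 85 and 40. The log2 fold change ranged, over single libraries left out, from -1.65 to 0.72 for Vegfa, -1.60 to 0.26 for Egln3, -1.38 to 0.022 for Car9, -1.32 to 0.15 for Bnip3, -1.33 to 0.10 for Ndrg1, -0.38 to 0.11 for P4ha1 and -0.10 to 0.56 for Hif1a. It stayed below 0 for Pdk1 (-0.70 to -0.28) and Ankrd37 (-0.75 to -0.15). The values nearest 0 came without IgG replicate 1 and were smaller in size than their SE (0.37 and 0.39). Hif1a was -0.45 under T cell list scaling and P4ha1 0.22 under liver list scaling. Of the 9 tested members, 3 to 8 were below 0 with a library left out, and 5 in the replicate 2 libraries alone, a pair added after the data were seen. The cause of these changes was not tested. In this balanced design a replicate block cannot move a fold change; with it 0 genes were called, with 303 at an unadjusted p under 0.05, against 146 without it. The labels do not say that numbers pair pools, and deviations of same-numbered libraries correlated at 0.330 across genes. Without a filter Adm had a log2 fold change of -0.30 (adjusted p = 0.994 in limma).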
